A study of Boehmeria nivea with 10 samples.

Results

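In ramie (Boehmeria nivea, a perennial fibre crop of the nettle family), a set of root transcripts stood in 1 graded order over the growth conditions: lowest in young roots formed in water, intermediate in older roots formed in water and highest in roots formed in soil. The set comprised 150 contigs (assembled transcript sequences) out of 40300 named in the tables. It was drawn from 31098 contigs that carried no cluster number in the assembly, of which 13171 had at least 10 expected counts (estimated reads) in each of the 9 libraries. Levels are given in FPKM, the estimated reads per length of contig, scaled for library size. The terrestrial step was the lowest terrestrial FPKM divided by the highest late FPKM, and the stage step was the lowest late FPKM divided by the highest early FPKM. The criteria were that both steps were above 1 and both ratios of mean FPKM at least 1.5, and 597 contigs met them. They were ranked by the smaller of their 2 steps and the first 150 were taken. The order of the groups and the absence of overlap between them were therefore fixed by the choice in every one of the 150 contigs, and their levels and ratios are a description that carries no test.

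The groups were late hydroponic roots (3 libraries, roots induced in water, seedlings of 30 days), early hydroponic roots (3 libraries, roots induced in water, seedlings of 5 days) and terrestrial roots (3 libraries, roots in soil, seedlings of 30 days). Late hydroponic and terrestrial roots thus shared a stated seedling age and differed in medium, whereas late and early hydroponic roots shared the medium and differed in age and stage together. The labels name no cultivar, tell nothing of whether plants were pooled, and do not say that a group's 3 libraries were made from different plants, so the spread between libraries may be partly technical. A pooled root sample served as the source of the assembly and entered no comparison.

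Roots in soil meet mechanical resistance, uneven water and nutrients and a microbial community, while roots in unaerated water meet low oxygen and grow free of soil particles. Plants commonly respond to water by forming new roots, often with air spaces in the cortex, and as any root ages its vascular tissue matures and its walls thicken. The contigs carry assembly identifiers only, so no gene name or function is given for any of them, and several of the 150 may be fragments of 1 transcript.

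The listed expected counts summed to between 9499903 and 11522430 per library. Late hydroponic replicate 3 stood apart from its group. On the second principal component of log2 CPM (counts scaled for library size) over all tested contigs, which held 17% of the variance, its score was -52.62, where the other late libraries scored -113.92 and -95.99 and the early ones 60.62 to 75.76. Given with and without it are the share of counts, the median ratios and positions, and the classes of terrestrial level. So are the contigs meeting the criteria, the calls between late and early roots, and the counts of which ratio was larger and which step smaller. Other counts built on ratios or positions are given with it only. The counts, classes and share without it were added after seeing the data.

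The 150 contigs together took up a small part of the RNA in water and a larger part in soil. Their FPKM summed to 5737, 6911 and 4509 in late replicates 1, 2 and 3, to 1390, 2213 and 1850 in early replicates 1, 2 and 3 and to 24857, 28558 and 22317 in terrestrial replicates 1, 2 and 3. As a share of all listed expected counts they held 0.732 ± 0.135% in late hydroponic, 0.244 ± 0.055% in early hydroponic and 2.89 ± 0.492% in terrestrial libraries (SD, n = 3 each). Without late replicate 3 the late share was 0.742 and 0.861%, with a mean of 0.801%. The 3 groups did not overlap in either measure, as the choice of contigs required of each member. In whole-root RNA, fewer cells of a type and less RNA per cell cannot be told apart.

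The median contig of the set stood at 16.8, 17.7 and 14.0 FPKM in late replicates 1, 2 and 3, at 5.62, 6.54 and 6.55 FPKM in the early libraries and at 46.2, 54.8 and 45.5 FPKM in the soil libraries. Over all 13171 contigs over the count minimum the median per library was 14.7 to 15.8 FPKM in late hydroponic, 13.0 to 13.4 FPKM in early hydroponic and again 14.7 to 15.8 FPKM in terrestrial roots. In late hydroponic roots the set thus lay in the middle of the range of expression, with a median percentile of 51.9 among the contigs over the count minimum. In early hydroponic roots its median percentile was 26.3 and in terrestrial roots 83.8. A mean under 10 FPKM was seen in 45 of the 150 contigs (30.0%) in late hydroponic, 104 (69.3%) in early hydroponic and 5 (3.33%) in terrestrial roots. Among all contigs over the count minimum the shares were 35.4, 40.8 and 35.7% in the same order.

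**Figure D1:**
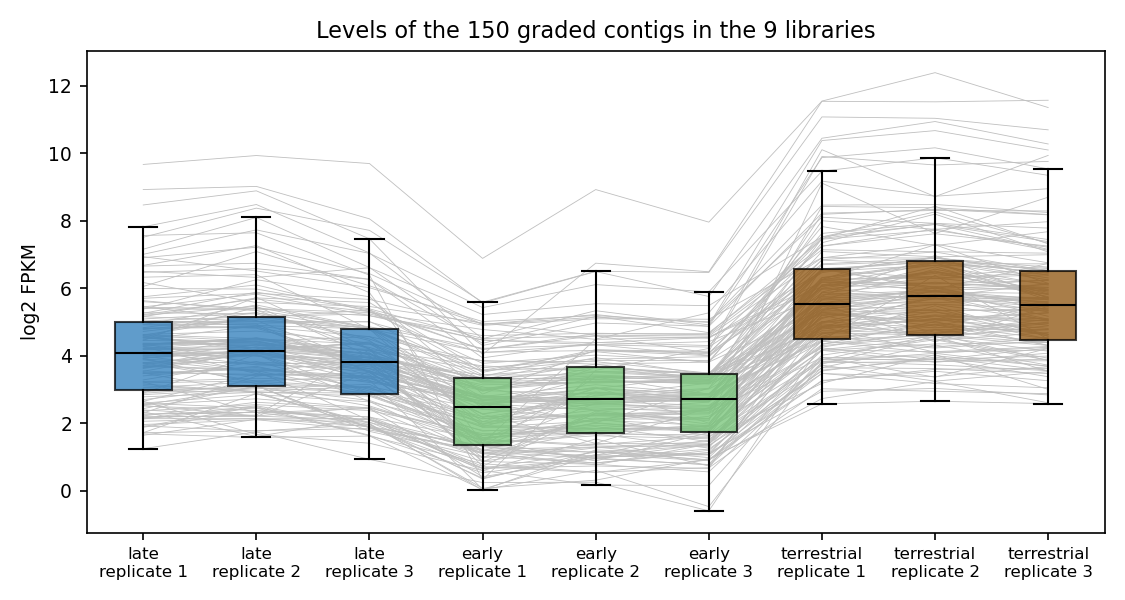
Levels (log2 FPKM) of the 150 graded contigs in the 9 libraries. Grey lines are single contigs, boxes span the quartiles with the median as a line, and whiskers reach the last value within 1.5 times the box. The boxes lie lowest in the 3 early libraries, with medians of 5.62 to 6.55 FPKM, and highest in the 3 terrestrial ones, with medians of 45.5 to 54.8 FPKM.

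Over the 150 contigs the ratio of mean FPKM, terrestrial over late, had a median of 2.98 (range 1.63 to 16.3), and the ratio late over early had a median of 2.49 (1.51 to 14.9). Without late replicate 3 these medians were 2.72 and 2.64. The ratio terrestrial over early had a median of 8.18 (2.77 to 108). The interval between late hydroponic and terrestrial roots was the larger of them in 99 contigs, and in 80 without late replicate 3. Both ratios were at least 2 in 101 contigs, at least 4 in 12 and at least 8 in 1. The stage step was the smaller of the 2 steps, and hence the one that set the rank, in 100 contigs, and in 79 without late replicate 3. Among all contigs over the count minimum the median ratio was 1.04 terrestrial over late and 1.11 late over early, so the second was above 1 on the FPKM scale for the median contig as well.

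**Figure D2:**
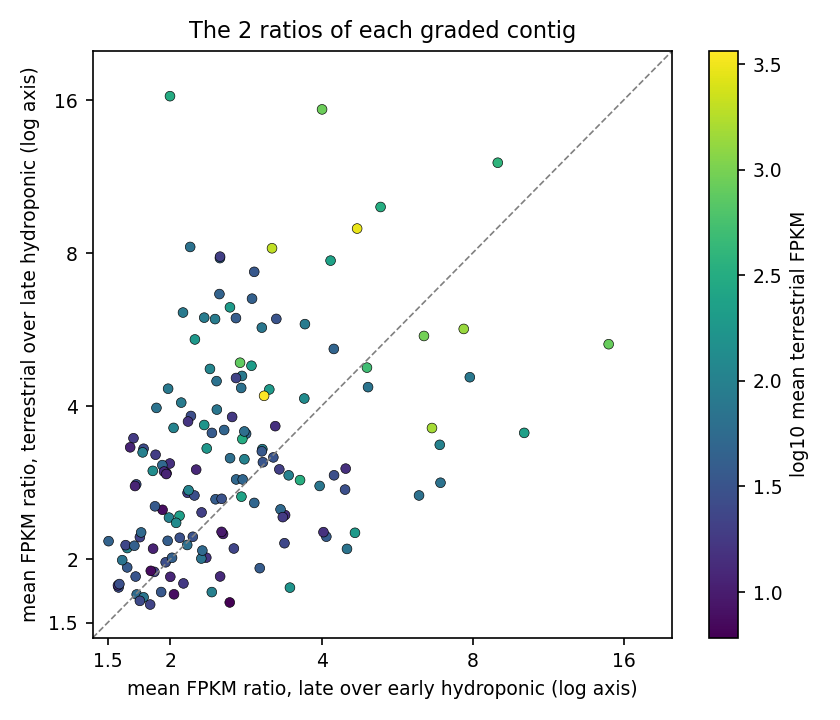
Ratio of mean FPKM late over early hydroponic (x, log axis) against terrestrial over late hydroponic (y, log axis) for the 150 graded contigs, coloured by mean terrestrial FPKM. The dashed line marks equal ratios, and 99 contigs lie above it. Neither ratio can lie under 1.5, since the choice of contigs set that limit.

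Where the late level lay between the other groups was expressed on the log2 scale, with 0 at the early mean and 1 at the terrestrial mean. The median position was 0.45 (quartiles 0.39 and 0.53, range 0.20 to 0.69), and 91 of the 150 contigs lay between 0.4 and 0.6. The minimum on both ratios and the ranking by the smaller step keep positions away from 0 and 1. A position near the middle is therefore partly set by the choice, and positions of contigs outside the set were not summarised. On the linear FPKM scale the median position was 0.234, closer to the early level. Taken by library, the median position was 0.46 in late replicate 1, 0.50 in late replicate 2 and 0.36 in late replicate 3. Late replicate 3 was the lowest of the late libraries in 98 of the 150 contigs (65.3%), and in 41.0% of all contigs over the count minimum. Without it the median position of the late mean was 0.478.

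**Figure D3:**
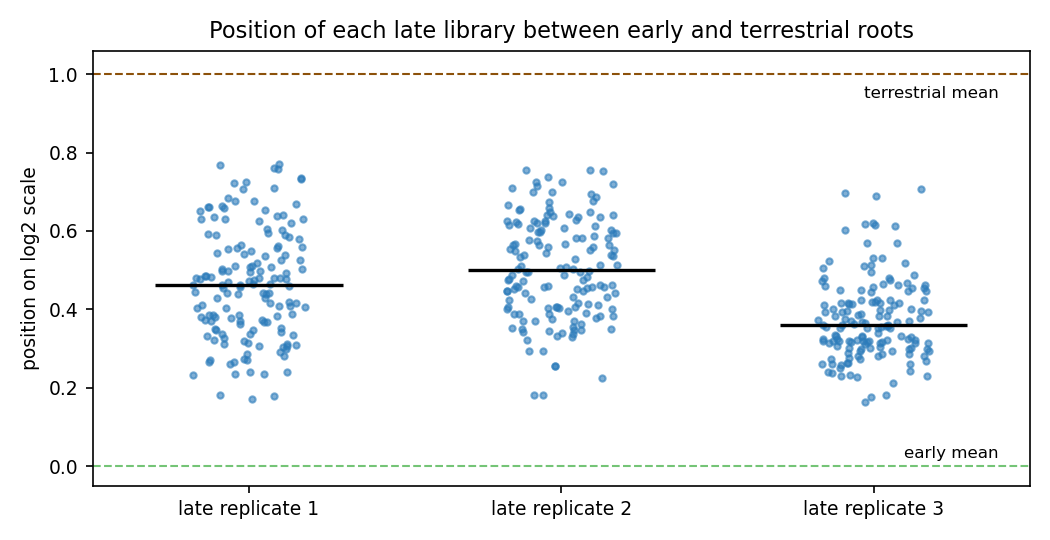
Position of each late hydroponic library between the early mean (0) and the terrestrial mean (1) on the log2 FPKM scale, for each of the 150 contigs (points), with the median as a bar. Points are spread sideways for legibility only. The medians were 0.46, 0.50 and 0.36, and every point lies between the dashed lines, as the choice of contigs required.

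Libraries of the other groups also took the same rank in many contigs of the set. The steps were built on the lowest and highest libraries, so these ranks, like that of late replicate 3, are not independent of the choice. Early hydroponic replicate 1 was the lowest early library in 89 contigs (59.3%, against 36.6% of all contigs over the count minimum). Early replicate 2 was the highest early library in 82 contigs (54.7%, against 30.8%). Terrestrial replicate 2 was the highest terrestrial library in 88 contigs (58.7%, against 32.4%), and terrestrial replicate 3 the lowest in 77 (51.3%, against 24.5%). The ratio of the highest to the lowest library within a group had a median of 1.46 in late hydroponic, 1.30 in early hydroponic and 1.32 in terrestrial roots over the 150 contigs, and of 1.36, 1.24 and 1.30 over all contigs over the count minimum.

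The contig with the largest smaller step was Unigene33645_mixA, of 1876 bases. It stood at 36.7, 44.2 and 16.0 FPKM in late hydroponic, at 1.65, 4.95 and 4.20 FPKM in early hydroponic and at 555, 197 and 415 FPKM in terrestrial libraries. Its lowest terrestrial library was 4.46 times its highest late one, and its lowest late library 3.24 times its highest early one. It also had the largest overall range of the set, with a ratio of means terrestrial over early of 108. Its early level rested on 36 counts in the lowest library.

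Unigene18828_mixA, a short contig of 256 bases, came next, at 226, 358 and 132 FPKM in late hydroponic, 22.7, 40.3 and 30.1 FPKM in early hydroponic and 1332, 1633 and 1096 FPKM in terrestrial libraries. Unigene1370_mixA, of 2719 bases, had a like profile at a lower level, with 143, 274 and 98.0 FPKM in late hydroponic, 19.8, 31.3 and 29.3 FPKM in early hydroponic and 938, 1147 and 744 FPKM in terrestrial libraries. In both contigs late replicate 2 was the highest and late replicate 3 the lowest late library. The position of the late mean was 0.54 in Unigene18828_mixA and 0.52 in Unigene1370_mixA, near the middle of the interval. Unigene13400_mixA, of 1107 bases, lay nearer to soil at 0.60, with means of 424 ± 137 FPKM late, 63.8 ± 23.1 FPKM early and 1535 ± 383 FPKM in soil (SD, n = 3 each).

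A further group of the leading contigs was lower in level and even between the late hydroponic libraries. Unigene1988_mixA, of 240 bases, stood at 32.4, 31.2 and 32.4 FPKM in late hydroponic, 10.8, 12.6 and 10.8 FPKM in early hydroponic and 91.3, 119 and 91.4 FPKM in terrestrial libraries. Unigene2857_mixA, of 1860 bases, stood at 14.9, 13.4 and 14.2 FPKM in late hydroponic, 5.34, 4.34 and 5.35 FPKM in early hydroponic and 43.7, 65.7 and 40.8 FPKM in terrestrial libraries. In these 2 contigs the late libraries, replicate 3 included, lay within about 1 FPKM of their mean. The expected counts of Unigene2857_mixA were whole in 1 of 9 libraries, so some of its reads were divided with other contigs.

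Unigene4976_mixA, of 2341 bases, was the evenest of the leading contigs in early roots, at 1.58, 1.66 and 1.58 FPKM, with 5.25, 4.62 and 4.29 FPKM in late hydroponic libraries and 44.3, 25.9 and 33.9 FPKM in terrestrial ones. Unigene16894_mixA, of 735 bases, stood at 4.65, 6.15 and 5.39 FPKM in late hydroponic, 1.33, 1.95 and 1.70 FPKM in early hydroponic and 29.2, 33.9 and 33.0 FPKM in terrestrial libraries. Both had a late level closer to the early than to the terrestrial one, at positions 0.35 and 0.40. Unigene4212_mixA, of 1594 bases, combined a wide terrestrial step of 7.51 with means of 32.8 ± 9.46 FPKM late, 6.25 ± 2.05 FPKM early and 323 ± 28.2 FPKM in soil (SD, n = 3 each).

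The other 3 of the leading 12 lay between these. Unigene1015_mixA averaged 17.3 FPKM in late hydroponic, 2.19 in early hydroponic and 79.0 in terrestrial roots, Unigene21460_mixA averaged 16.2, 3.27 and 70.5 FPKM in the same order, and Unigene33938_mixA, of 235 bases, averaged 31.1, 8.40 and 129 FPKM.

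**Figure D4:**
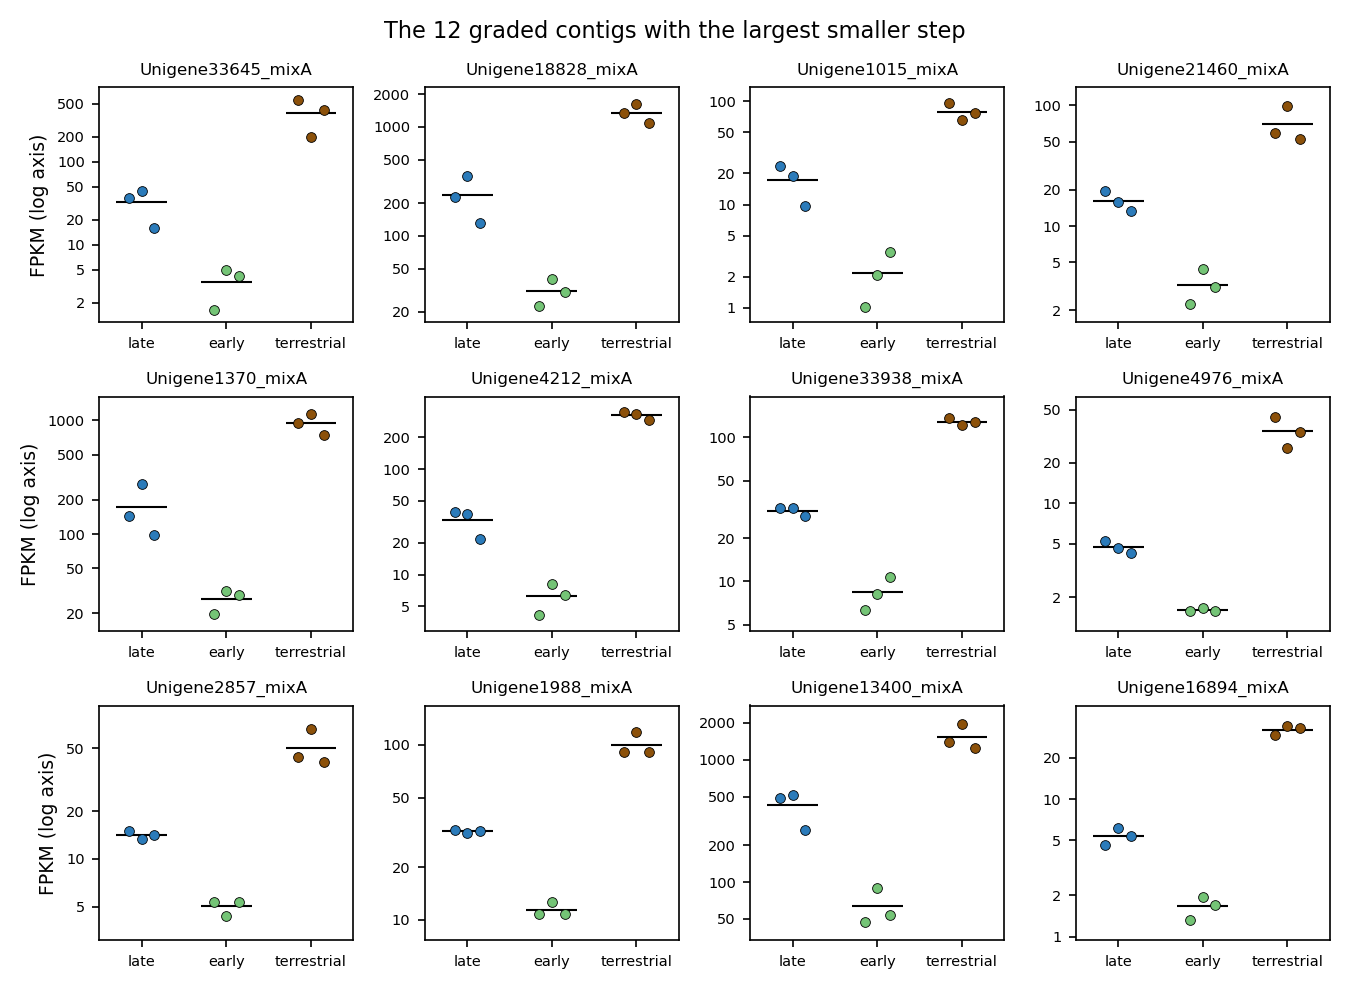
FPKM (log axis, own scale in each panel) of the 12 contigs with the largest smaller step. Points are libraries in the order of their replicate numbers and bars are group means. In every panel the 3 early libraries lie lowest and the 3 terrestrial ones highest, as the choice of contigs required.

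The most abundant contig of the set was Unigene29634_mixA, of 1862 bases, at 815, 978 and 830 FPKM in late hydroponic, 118, 486 and 249 FPKM in early hydroponic and 2996, 5372 and 2623 FPKM in terrestrial libraries. It alone held between 8.5 and 22% of the set's summed FPKM in any library other than terrestrial replicate 3, where Unigene13995_mixA led with 13.7%. Unigene13995_mixA, of 309 bases, stood at 354, 474 and 177 FPKM in late hydroponic, 16.4, 107 and 89.8 FPKM in early hydroponic and 2982, 2950 and 3047 FPKM in terrestrial libraries. It was even in soil and uneven in early roots, where replicate 1 lay far under the others. Its expected counts were whole in none of the libraries, and its reads were thus assigned partly by estimate.

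Unigene15664_mixA, of 869 bases, stood at 182, 332 and 210 FPKM in late hydroponic, 48.1, 90.7 and 88.5 FPKM in early hydroponic and 2163, 2103 and 1658 FPKM in terrestrial libraries. It was the third in terrestrial level and, like Unigene13995_mixA, had a terrestrial over late ratio above 8. In all, 5 contigs averaged 1000 FPKM or more in terrestrial roots, 31 averaged 100 to 1000, 84 averaged 20 to 100 and 30 averaged less than 20. From the highest to the lowest of these classes the median ratio terrestrial over late was 5.67, 3.67, 2.80 and 2.64, and the median ratio late over early was 4.71, 2.81, 2.44 and 2.15. Without late replicate 3 the same classes had medians of 4.64, 3.50, 2.60 and 2.45 terrestrial over late and of 5.82, 3.06, 2.59 and 2.19 late over early, so that in the highest class the second ratio was then the larger. The median position of late hydroponic roots was 0.44, 0.44, 0.45 and 0.46 in the classes, and 0.47, 0.47, 0.48 and 0.50 without late replicate 3. The classes were formed on the terrestrial level, which is also the top of the first ratio, so this gradient is a description.

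Some contigs had most of their range in 1 interval. Unigene22817_mixA, of 621 bases, had the highest ratio terrestrial over late, 16.3, and the lowest position, 0.20, with 16.8, 17.5 and 21.3 FPKM in late hydroponic, 9.11, 9.32 and 9.43 FPKM in early hydroponic and 292, 324 and 289 FPKM in terrestrial libraries. It was near a division between soil and water, with a ratio late over early of 2.0. Unigene30825_mixA, of 443 bases, followed with a ratio terrestrial over late of 15.3 and means of 57.2 ± 17.6 FPKM late, 14.3 ± 6.07 FPKM early and 878 ± 77.4 FPKM in soil (SD, n = 3 each).

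The highest ratio late over early, 14.9, was in Unigene31803_mixA, of 712 bases, at 189, 200 and 83.8 FPKM in late hydroponic, 1.25, 11.9 and 18.6 FPKM in early hydroponic and 1103, 421 and 981 FPKM in terrestrial libraries. Its early libraries differed 14.9-fold among themselves, the widest spread of the set, and replicate 1 held 10 counts, the minimum allowed. Unigene33986_mixA, of 970 bases, had a ratio late over early of 10.1, with 80.4, 84.6 and 27.6 FPKM in late hydroponic, 3.71, 7.11 and 8.18 FPKM in early hydroponic and 178, 345 and 159 FPKM in terrestrial libraries. Its late replicate 3 lay well under the other late libraries and still above each early one.

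The longest contigs were moderate in level. Unigene5954_mixA, of 3593 bases, stood at 4.51, 4.72 and 18.1 FPKM in late hydroponic, 2.16, 1.70 and 2.60 FPKM in early hydroponic and 45.9, 52.2 and 43.5 FPKM in terrestrial libraries. It went against the set in that late replicate 3 was its highest late library. The next in length, Unigene23421_mixA, of 3109 bases, averaged 54.6 FPKM in late hydroponic, 26.6 in early hydroponic and 129 in terrestrial roots. Unigene11663_mixA, of 3099 bases, averaged 6.74, 1.67 and 15.2 FPKM in the same order, and Unigene30320_mixA, of 2881 bases, averaged 92.8, 33.5 and 246 FPKM.

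Contig length and read sharing were not criteria themselves, but contigs with a cluster number were left out and the count minimum depends on length. The 150 contigs had a median length of 1268 bases (quartiles 826 and 1786), and the 13171 contigs over the count minimum a median of 1342 (840 and 1974). Contigs under 300 bases made up 10 of the 150 (6.67%) and 4.18% of the contigs over the count minimum. Expected counts were whole in all 9 libraries in 135 of the 150 (90.0%) and in 85.2% of the contigs over the count minimum. The lowest count of a contig in any library was under 20 in 26 of the 150, so the early level of these rests on few reads.

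At the limit of the set, the smaller step was 1.394 in Unigene5212_mixA, 1.393 in Unigene19942_mixA and 1.392 in Unigene22688_mixA, the last 3 included, and 1.390 in each of Unigene18903_mixA, Unigene5445_mixA and Unigene12608_mixA, the first 3 left out. Unigene22688_mixA stood at 15.3, 17.9 and 15.4 FPKM in late hydroponic, 10.2, 9.79 and 10.7 FPKM in early hydroponic and 27.7, 34.1 and 24.9 FPKM in terrestrial libraries. Unigene5445_mixA, just outside, had larger ratios of means, 5.26 terrestrial over late and 3.89 late over early, and was kept out by a low late replicate 3 of 3.74 FPKM, against 2.69 FPKM in the highest early library. The 447 contigs that met the criteria and stayed outside the set had a median ratio of 2.08 terrestrial over late and 1.74 late over early.

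Whether the graded order holds in libraries that took no part in the choice was examined by leaving out 1 replicate number of every group, choosing 150 contigs by the same criteria on the other 6 libraries, and reading the 3 left-out libraries. The background in each round was all unclustered contigs with at least 10 expected counts in the 6 choosing libraries. These numbered 13552, 13718 and 13399 with replicates 1, 2 and 3 left out. With replicate 1 left out, 139 of the 150 contigs chosen (92.7%) had terrestrial above late above early in the left-out libraries, where 32.7% of the background did. With replicate 2 left out, 141 of 150 kept the order, against a background of 33.9%. With replicate 3 left out, 139 of 150 kept it, against 34.1%. The labels do not say that left-out and choosing libraries came from different plants, so the left-out libraries may not be independent of the choice. Replicate numbers only name the libraries here, and the labels do not say that they pair them. No test was made, since contigs are not replicates and 1 late library enters both intervals.

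The size of the intervals in the left-out libraries varied with the library. With replicate 1 left out, the median ratio terrestrial over late was 3.08 in the left-out libraries and 3.13 in those that chose the contigs, and the ratio late over early was 3.11 and 2.48. With replicate 2 left out, the left-out medians were 2.95 and 2.74, against 3.11 and 2.65 in the choosing libraries. With replicate 3 left out, the left-out median was 4.39 terrestrial over late, against 3.17 in the choosing libraries, and 1.80 late over early, against 2.87. In that round the late level thus lay nearer to the early one in the left-out libraries than in the choosing ones, where the choice had favoured large steps. The early and terrestrial libraries changed along with the late one, and which of them made the shift was not tested. In the left-out late replicate 3, all but 2 of the 150 contigs were still below the left-out terrestrial library and 141 were above the early one. Over the background contigs of each round, the left-out medians for replicates 1, 2 and 3 were 1.08, 0.954 and 1.11 terrestrial over late. For late over early they were 1.10, 1.16 and 1.05. Both left-out ratios were at least 1.5 in 114, 119 and 97 of the chosen contigs for replicates 1, 2 and 3. The same share over all contigs was not counted. Of the contigs chosen in these rounds, 97, 94 and 83 were among the 150 described here, and 64 of the 150 were chosen in all 3 rounds, which share libraries with the choice of the 150.

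**Figure D5:**
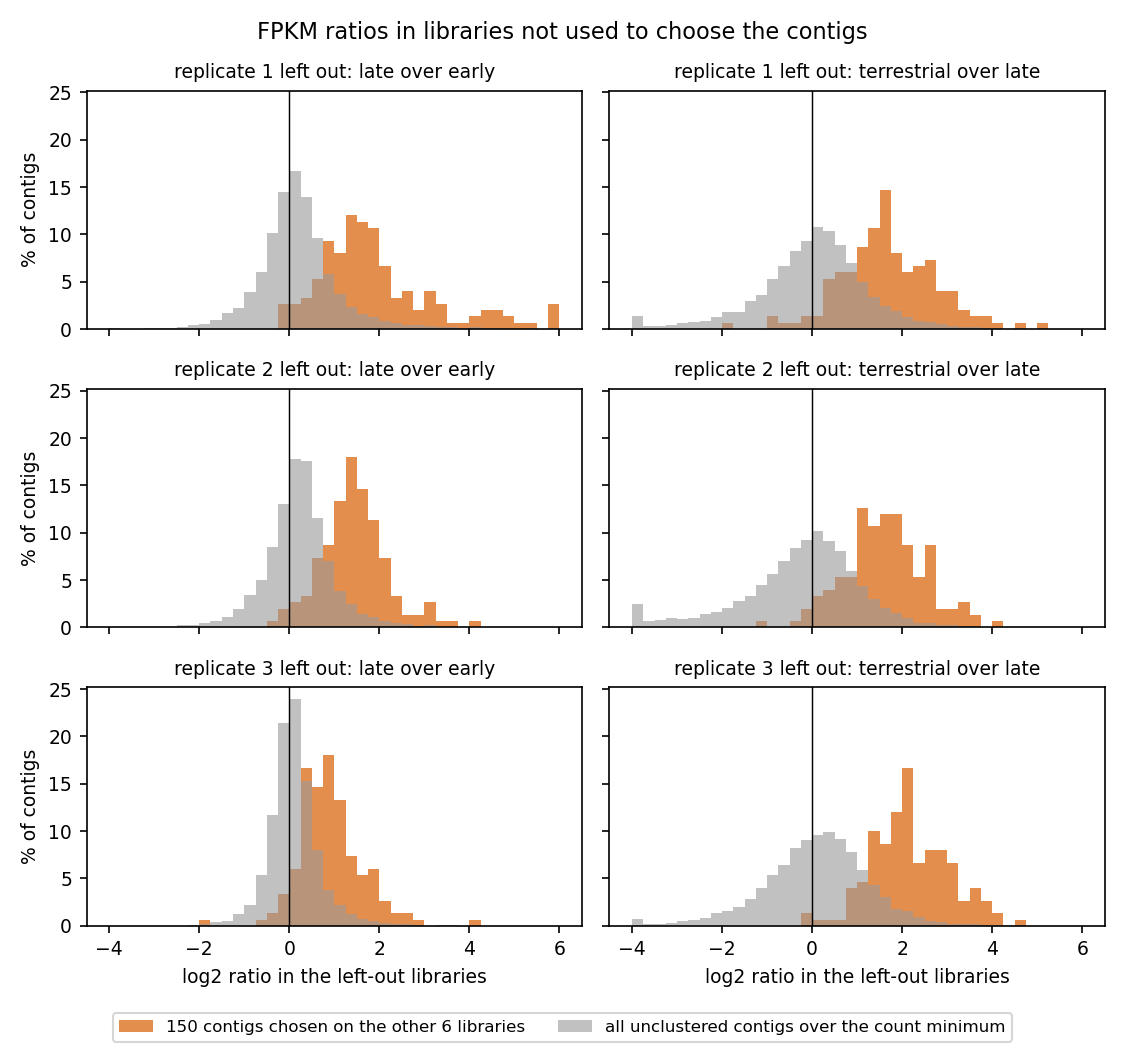
FPKM ratios (log2) in the 3 left-out libraries of each round, late over early on the left and terrestrial over late on the right. Orange bars show the 150 contigs chosen on the other 6 libraries. Grey bars show all unclustered contigs over the count minimum in those 6 libraries. Each is a percentage of its contigs, with values beyond the axis placed in the end bars. Most orange bars lie to the right of 0, with medians between 1.80 and 4.39 as ratios.

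A fit was made across all 26747 tested contigs (quasi-likelihood test of edgeR, p-values adjusted by the Benjamini-Hochberg method, called at an adjusted p under 0.05). The counts of the 150 called in it are a description, since the choice had used the same contrasts. In late hydroponic against terrestrial roots all but 2 of the 150 were called lower, where 24.2% of all tested contigs were. In early hydroponic against terrestrial roots 150 were called lower, against 31% of all tested. In late against early hydroponic roots 128 were called higher, against 8.37% of all tested. Nothing is read from these counts, since the contigs were chosen for the differences. By non-overlap of FPKM alone, every terrestrial library lay above every late one in 34.8% of the contigs over the count minimum and above every early one in 45.1%, and every late library lay above every early one in 29.2%.

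The fitted log2 change over the 150 contigs had a median of -1.49 (range -3.93 to -0.61) in late hydroponic against terrestrial roots, where all tested contigs had a median of 0.02. It had a median of -2.80 (-6.51 to -1.24) in early hydroponic against terrestrial roots (all tested, -0.09) and of 1.17 (0.45 to 3.75) in late against early hydroponic roots (all tested, 0.04). The comparisons share libraries, so these values are not independent of each other. The number of the 150 called higher in late than in early hydroponic roots was 67, 84 and 65 without early replicates 1, 2 and 3 in turn, where 3.37, 4.25 and 3.64% of all tested contigs were. It was 76 without late replicate 2 (4.26% of all tested) and 116 without late replicate 3 (9.41%).

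The 2 contigs not called between late hydroponic and terrestrial roots were Unigene27050_mixA and Unigene3999_mixA, which are named for that outcome. Unigene27050_mixA stood at 9.16, 9.53 and 10.5 FPKM in late hydroponic, 2.50, 6.03 and 5.20 FPKM in early hydroponic and 18.8, 14.8 and 18.7 FPKM in terrestrial libraries. Unigene3999_mixA stood at 3.78, 3.40 and 3.90 FPKM in late hydroponic, 1.05, 1.24 and 1.93 FPKM in early hydroponic and 5.95, 6.28 and 5.98 FPKM in terrestrial libraries. In both, the late hydroponic libraries were nonetheless all below the terrestrial ones, as the choice required. Of the 22 contigs not called between late and early hydroponic roots, Unigene29634_mixA was the most abundant, with a fitted log2 change of 1.47 and a highest early level 4.11 times the lowest.

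After rescaling of the FPKM values by the TMM factors or by DESeq2's size factors, a ratio late over early of at least 1.5 was left in 142 and 136 of the 150, and 357 and 321 contigs met the criteria in place of 597. Over all tested contigs the median log2 change of late against early hydroponic roots was 0.04 with TMM scaling and 0.18 with library totals, and that of early hydroponic against terrestrial roots was -0.09 and -0.32. When the criteria were applied again without late replicate 3, 775 contigs met them and 92 of the 150 were again among the first 150.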

How the data were processed

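Root RNA of 9 libraries was quantified against contigs assembled from a pooled sample, per the series' design text. Each deposited table lists, per the file headers, an expected count and an FPKM value per contig. The deposited expected counts are the authors' estimates and need not be whole, and a count is called whole where it has no decimal part. The FPKM deposited by the authors fit a contig length shortened by 36 to 37 bases and a library size of which the listed counts are 97.2 to 97.4%. Assembler, aligner and strandedness are not given in the sources used here. A contig missing from a table was entered as 0.

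Contigs were chosen and described with pandas 2.3.3. The members, the rule for named contigs and the lists were chosen with earlier results of these data known. Named contigs were the 12 with the largest smaller step, the 4 highest in terrestrial level, in each of 3 ratios and in length, and the 3 on each side of the limit. Expected counts were rounded and fitted over all contigs passing filterByExpr (minimum count of 10), with edgeR 4.0.16 in R 4.3.3, TMM scaling, robust quasi-likelihood dispersions, 3 groups and 6 residual degrees of freedom, and the p-values measure spread between these libraries. All 150 members passed the filter. The alternatives included DESeq2 1.42.0 and limma 3.58.1 on log2(FPKM + 1). The fit and the choice were run on simulated counts with the same dispersion for every contig. In the run of the choice the graded contigs all had high mean counts, so contigs with few early reads were not covered. Intervals for counting error were not computed.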

Additional observations from a re-analysis of the deposited data

How the results depend on the processing

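The count of the 150 contigs called lower than terrestrial moved by less than 1.5 times in every alternative run, with 119 to 150 for late and 149 to 150 for early hydroponic roots, and with single libraries left out it was 141 to 149 and 150; of all tested contigs 15.2 to 29.6% and 20.2 to 38.6% were called in these directions. The count called higher in late than in early hydroponic roots, 128, became 85 with a log2 change of at least 1 required and 65 to 136 with single libraries left out; the left-out fits have fewer samples. Over all alternatives 3.37 to 12.9% of all tested contigs were called in that direction. The number of contigs that met the criteria, 597, became 357 with TMM factors, 321 with DESeq2's size factors, 345 with at least 50 counts in all libraries, 953 with at least 1 count, 172 with both ratios at least 2, and 580 to 775 with single libraries left out. Of the 150, 92 to 146 were chosen again with single libraries left out, the lowest without late replicate 3. The median ratio late over early, 2.49, was 2.17 with DESeq2's size factors and 1.95 with at least 50 counts (2.27 to 2.64 with single libraries left out), and the ratio terrestrial over late, 2.98, was 2.49 with at least 50 counts (2.72 to 3.17). The median of 2.17 was taken over the same 150 contigs with rescaled FPKM, and the medians with at least 50 counts over contigs chosen anew. For the other changes the cause was not tested. The median position, 0.452, was 0.234 on the linear scale and 0.423 to 0.478 with single libraries left out. In the left-out libraries 136 to 146 of 150 contigs kept the order over 3 alternatives, for which the share over all contigs is not given. With the replicate number as a block, 146, 150 and 115 contigs were called in late hydroponic against terrestrial, early hydroponic against terrestrial and late against early hydroponic roots, with 23.2, 30.1 and 6.49% of all tested. The labels do not say whether the numbers pair libraries across groups. Correlations of deviations ran from -0.093 to 0.135 for same-numbered libraries and from -0.165 to 0.126 for the others. In all, 2 of 9 libraries correlated best with their own number in both other groups. Between early and late hydroponic libraries the same-numbered correlations were 0.055, 0.072 and 0.021, and the others lay between -0.058 and 0. Depth limits contigs with few early counts.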

Other observations

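Contigs that carry a cluster number, and may be variants of 1 gene that share reads, were left out of the choice. Of 5154 such contigs with at least 10 expected counts in every library, 221 (4.29%) met the same steps and ratios, against 597 (4.53%) of the 13171 unclustered ones. They came from 200 clusters, of which 19 held more than 1 contig that met the criteria, and 51 of them had a smaller step at or above the lowest of the 150. When clustered contigs were admitted, 113 of the 150 stayed among the first 150.

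The mirrored order, early hydroponic above late hydroponic above terrestrial, was met under the same criteria by 410 unclustered contigs (3.11%). Both counts use the same late libraries in both intervals, and their difference was not tested. They hold for the FPKM scale as deposited. With TMM factors or DESeq2's size factors 357 or 321 contigs met the graded order, fewer than 410. The mirrored order was not counted on those scales, so which order was the commoner depends on the scaling and is not settled.

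In Unigene31807_mixA, of 702 bases, the early libraries spread as in Unigene31803_mixA. It was named for that spread after its values were seen. It stood at 102, 154 and 58.4 FPKM in late hydroponic, 2.67, 22.5 and 38.6 FPKM in early hydroponic and 578, 424 and 495 FPKM in terrestrial libraries. In both contigs early replicate 1 was the lowest and early replicate 3 the highest early library, and late replicate 3 the lowest late one.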
